A study of Homo sapiens with 16 samples.

Results

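The DNA replication machinery is described here through 57 genes, from the factors that license origins to the enzymes that copy, join and chromatinise DNA. They were taken by gene symbol from a list, without a cut on their values, but the list was chosen with earlier results of these data known. All 57 were found among the 26229 genes listed in the deposited count table. Every one of them was among the 14673 genes averaging more than 10 counts, over which the tests were run. By role the list holds 8 licensing genes, 8 MCM genes, 7 genes of helicase activation and 9 polymerase genes. It also holds 6 genes of the sliding clamp and its loader and 6 of single-stranded DNA binding and maturation. The rest are 5 genes of nucleotide supply, 4 of chromatin and methylation and 4 of fork protection.

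Origins are licensed in G1, when the origin recognition complex, CDC6 and CDT1 load the MCM helicase onto DNA. At the start of S phase a kinase and several firing factors convert the loaded ring into the active helicase of MCM, CDC45 and GINS, behind which the polymerases copy both strands. Many of these genes are transcribed under E2F control and are expressed most strongly in dividing cells, which in the epidermis are the cells of the basal layer. In bulk RNA, fewer cells in S phase and less RNA per cell cannot be told apart.

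The cells were A431, a line from an epidermoid carcinoma, and HaCaT, a line of immortalised keratinocytes, both grown in DMEM with serum. Each line gave 1 library from cells transfected with control siRNA (siCTRL), 3 from cells transfected with siRNA against YAP1 (siYAP), 1 from cells given the empty vector and 3 from cells given a constitutively active YAP1 mutant (YAP5SA), so that 16 libraries fell into 8 groups. The siRNAs were given 2 times, 24 h apart, and RNA was analysed 48 h after the second transfection. The siRNA cells carried no vector and the vector cells no siRNA, and no time is stated for the vector cells. The methods call the replicates biological and the labels do not say whether they were separate cultures, so p values measure only the spread between these libraries. Each control group is 1 library, so exact permutation of 3 and 1 libraries can give no p below 0.25. The spread in the tests came from the treated triplicates, except where the 2 controls of a line were joined.

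Genes received 18115624 to 46791673 read pairs in a library, and 3 counts, the limit that a count of 0 allows, equalled 0.063 to 0.164 CPM (counts scaled to a common library total). Levels are given as CPM scaled by TMM factors. YAP1 checked the labels. It had 94.2 CPM in the siCTRL library against 5.34, 6.99 and 5.04 CPM in the siYAP libraries of A431 cells, and 254, then 23.2, 21.6 and 21.8 CPM in the same libraries of HaCaT cells. It had 124 CPM in the empty vector library against 1494, 3244 and 2938 CPM in the YAP5SA libraries of A431 cells, and 423, then 7546, 22243 and 10063 CPM in the same libraries of HaCaT cells, where mutant and endogenous transcripts are counted together. The 5 keratinocyte markers summed to between 1870 and 5530 CPM in all groups, and the fibroblast markers COL1A2 and PDGFRB and the leukocyte markers PTPRC and CD3E stayed below 0.5 CPM in every library. The other members of these lists were detected. COL1A1 reached 5.68 CPM and DCN 14.2 CPM, both in HaCaT siYAP replicate 3, and the 3 leukocyte markers, nearly all of it CD68, summed to 82 to 170 CPM in A431 cells and 8.16 to 32.6 CPM in HaCaT cells.

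Against siCTRL, YAP1 siRNA lowered much of the replication machinery in A431 cells and few of its genes passed in HaCaT cells, but the difference between the lines passed for 0 of the 57 genes, and with the empty vector library as a second control the counts turned to 1 in A431 cells and 50 in HaCaT cells. In A431 cells 30 of the 57 genes were called lower and 0 were called higher by the edgeR quasi-likelihood test, at a Benjamini-Hochberg FDR under 0.05 over all tested genes and a logCPM above 1. Of all 14673 genes, 3.78% were called lower in this comparison. The median log2 fold change of the 57 genes was -0.87, against 0.03 over all genes, and 53 of the 57 lay below 0. In HaCaT cells 4 of the 57 were called lower, DUT, PRIM1, RPA2 and ORC5, where 3.3% of all genes were called lower. There the median log2 fold change of the 57 was -0.29 and 51 lay below 0. DUT, PRIM1 and RPA2 were thus called in both lines, 27 genes in A431 cells alone and 26 in neither. Over the mean of both lines 30 of the 57 were called lower, against 7.68% of all genes, with a median log2 fold change of -0.54 and 56 of 57 below 0.

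Both counts rested partly on single libraries. Without A431 siYAP replicate 3 the A431 count was 14 of 57 and 1.64% of all genes were called lower, with the median of the 57 at -0.88. Without HaCaT siYAP replicate 3 the HaCaT count was 1 of 57 and 1.92% of all genes were called lower, with a median of -0.30. Read library by library, the medians were below 0 in each of the 6 siYAP libraries. The median log2 difference of the 57 genes from their own siCTRL library was -1.02, -0.70 and -0.82 in the A431 siYAP libraries, and -0.34, -0.19 and -0.35 in the HaCaT siYAP libraries. In all 3 libraries 49 of the 57 lay below siCTRL in A431 cells, compared with 34.9% of all genes, and 42 of the 57 in HaCaT cells, compared with 33.4% of all genes.

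**Figure D1:**
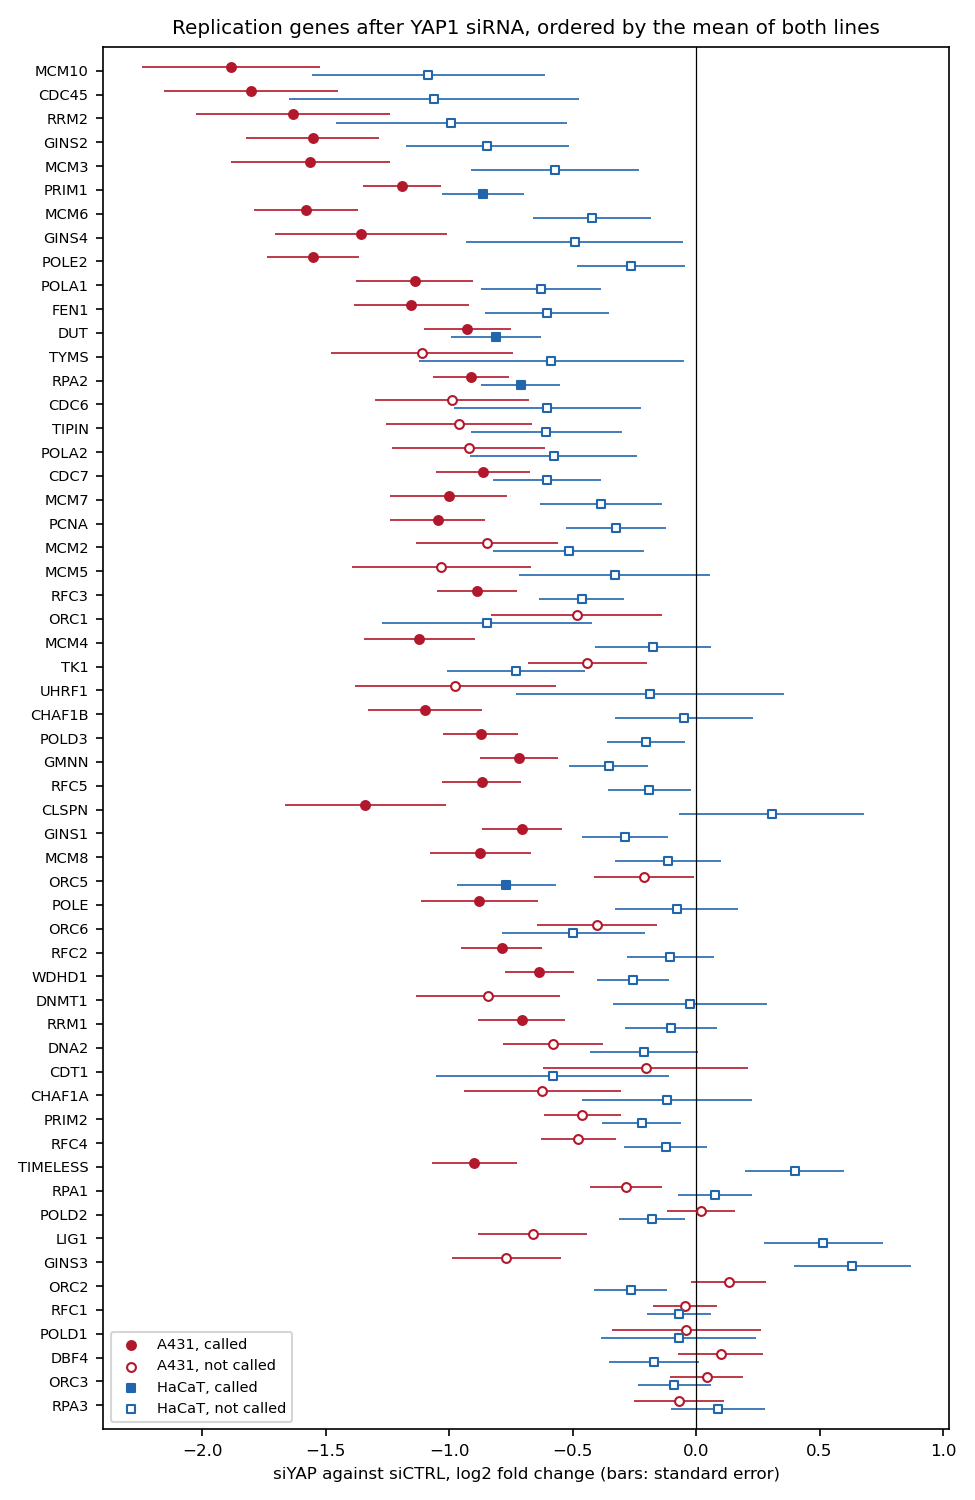
Log2 fold change of each of the 57 genes with siYAP against siCTRL on the x axis, with the standard error as bar, in A431 cells (circles) and HaCaT cells (squares), ordered by the mean of both lines. Filled symbols mark called genes, 30 in A431 cells and 4 in HaCaT cells; MCM10, CDC45 and RRM2 stand at the top and GINS3, LIG1, TIMELESS and CLSPN lie on opposite sides of 0 in the 2 lines.

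The order of the fall began with the same 3 genes in both lines, MCM10, CDC45 and RRM2. In A431 cells they were followed by MCM6, MCM3, POLE2 and GINS2, and in HaCaT cells by PRIM1, ORC1, GINS2 and DUT. At the other end of the A431 order stood ORC2, DBF4, ORC3, POLD2 and POLD1, with log2 fold changes of 0.13, 0.10, 0.04, 0.02 and -0.04. At the other end of the HaCaT order stood GINS3, LIG1, TIMELESS, CLSPN and RPA3, with log2 fold changes of 0.63, 0.52, 0.40, 0.31 and 0.09. Neighbours in these orders were not separated. None of the 56 neighbouring pairs in A431 cells differed by more than the smaller of their 2 standard errors, and in HaCaT cells 1 pair did, RPA3 and CLSPN. The orders of the 2 lines had a Spearman rho of 0.42 and a Pearson r of 0.39 over the 57 genes, which are not independent replicates and share their libraries within a line.

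In A431 cells MCM10, MCM6 and MCM3 were among the 5 largest falls, beside CDC45 and RRM2. In HaCaT cells MCM10 again ranked 1, but MCM3 ranked 19 and MCM6 ranked 24. MCM10, which helps to switch the loaded helicase on, had 42.2 CPM in the siCTRL library against 8.74, 13.9 and 11.9 CPM in the siYAP libraries of A431 cells, and 5.19, then 1.7, 3.79 and 2.02 CPM in the same libraries of HaCaT cells. All 6 siYAP libraries were below the control of their line. The log2 fold change was -1.89 (SE 0.36, FDR = 0.0104) in A431 cells and -1.08 (SE 0.47, FDR = 0.217) in HaCaT cells, by the edgeR test with Benjamini-Hochberg adjustment used throughout. MCM3 had 172 CPM in the siCTRL library against 40.0, 75.1 and 60.0 CPM in the siYAP libraries of A431 cells, and 67.6, then 50.8, 41.7 and 43.9 CPM in the same libraries of HaCaT cells. Its log2 fold change was -1.56 (SE 0.32, FDR = 0.015) in A431 cells and -0.57 (SE 0.34, FDR = 0.381) in HaCaT cells. MCM6 had 99.2 CPM in the siCTRL library against 32.6, 36.1 and 30.6 CPM in the siYAP libraries of A431 cells, and 18, then 10.9, 17.5 and 12.2 CPM in the same libraries of HaCaT cells. The fall of MCM6 was -1.58 (SE 0.21, FDR = 0.00172) on the log2 scale in A431 cells, and its HaCaT value of -0.42 (SE 0.24, FDR = 0.35) did not pass.

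The remaining MCM genes moved less in A431 cells. MCM4 had 163 CPM in the siCTRL library against 62.2, 94.6 and 68.4 CPM in the siYAP libraries of A431 cells, and 98.1, then 88.5, 90.3 and 82.1 CPM in the same libraries of HaCaT cells, with an A431 log2 fold change of -1.12 (SE 0.23, FDR = 0.0136). MCM7 had 183 CPM in the siCTRL library against 77, 105 and 91.6 CPM in the siYAP libraries of A431 cells, and 54.4, then 38.8, 44.6 and 41.7 CPM in the same libraries of HaCaT cells, with an A431 log2 fold change of -1.002 (SE 0.24, FDR = 0.0276). MCM2 and MCM5 did not pass in A431 cells. MCM2 had 143 CPM in the siCTRL library against 59.6, 92.5 and 87 CPM in the siYAP libraries of A431 cells, and 32.4, then 19.7, 26.4 and 21.9 CPM in the same libraries of HaCaT cells, with log2 fold changes of -0.85 (SE 0.29, FDR = 0.105) and -0.52 (SE 0.30, FDR = 0.379). MCM5 had 24.8 CPM in the siCTRL library against 8.17, 13.1 and 15.5 CPM in the siYAP libraries of A431 cells, and 13.5, then 10.1, 11 and 11.1 CPM in the same libraries of HaCaT cells, with log2 fold changes of -1.03 (SE 0.36, FDR = 0.114) and -0.33 (SE 0.39, FDR = 0.703). MCM8, a relative that acts in recombinational repair rather than in the replicative ring, had 39.8 CPM in the siCTRL library against 19, 24.4 and 21.8 CPM in the siYAP libraries of A431 cells, and 24.5, then 23.3, 21.2 and 23.4 CPM in the same libraries of HaCaT cells. In all, 6 of the 8 MCM genes were called lower in A431 cells and 0 in HaCaT cells, with median log2 fold changes of -1.08 and -0.40. In HaCaT cells 1 of the 8, MCM10, had an unadjusted edgeR p under 0.05, beside 20.4% of all genes, and DESeq2 called 4 of the 57 genes and 4.95% of all genes lower there.

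Levels of different genes can be set side by side only per length, here CPM per kilobase of each gene's transcript of longest coding sequence. The 6 subunits of the MCM2 to MCM7 ring are used in equal numbers in the protein complex, but their transcripts were not at equal levels per kilobase. With siCTRL in A431 cells MCM7, MCM3, MCM4 and MCM2 stood at 61.8, 53.7, 51.7 and 39.5 CPM per kilobase, MCM6 at 26.5 and MCM5 at 7.01. With siYAP the means of the 3 libraries were 30.9, 18.2, 23.8 and 22 CPM per kilobase for these 4 genes, 8.87 for MCM6 and 3.46 for MCM5. MCM5 was the lowest of the 6 in all 4 conditions of A431 cells. In HaCaT cells it had 3.82 CPM per kilobase with siCTRL, next to 4.82 for MCM6, and PCNA was the highest of all 57 genes per kilobase with 79.5.

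Most genes of helicase activation fell in A431 cells. CDC45, the helicase cofactor, had 30.8 CPM in the siCTRL library against 6.45, 12.3 and 7.88 CPM in the siYAP libraries of A431 cells, and 1.69, then 0.503, 0.971 and 0.958 CPM in the same libraries of HaCaT cells. Its log2 fold change was -1.80 (SE 0.35, FDR = 0.0117) in A431 cells, and -1.06 (SE 0.59, FDR = 0.34) in HaCaT cells, where the level was low already with siCTRL. GINS2, a subunit of the GINS complex, had 23.8 CPM in the siCTRL library against 6.81, 9.61 and 8.03 CPM in the siYAP libraries of A431 cells, and 4.75, then 2.17, 3.21 and 2.61 CPM in the same libraries of HaCaT cells. It changed by -1.55 (SE 0.27, FDR = 0.00679) on the log2 scale in A431 cells and by -0.84 (SE 0.33, FDR = 0.167) in HaCaT cells. DBF4, the activating subunit of the CDC7 kinase, had 51.2 CPM in the siCTRL library against 55.1, 51.1 and 58.4 CPM in the siYAP libraries of A431 cells, and 16.2, then 13.3, 16.2 and 13.8 CPM in the same libraries of HaCaT cells. The A431 control lay within the siYAP triplicate, and the log2 fold changes were 0.10 (SE 0.17, FDR = 0.79) and -0.17 (SE 0.18, FDR = 0.67). CDC7 itself was called lower in A431 cells, at -0.86 (SE 0.19, FDR = 0.0209). In this role 5 of 7 genes were called lower in A431 cells (CDC45, GINS2, GINS4, GINS1 and CDC7) and 0 of 7 in HaCaT cells, where 3 had an unadjusted p under 0.05, GINS2 and CDC7 with lower values and GINS3 with higher ones.

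Of the 8 origin licensing genes 1 was called in A431 cells, GMNN, the inhibitor of CDT1, at -0.72 (SE 0.16, FDR = 0.0195). CDC6, which recruits the MCM ring to origins, had 50.6 CPM in the siCTRL library against 21.2, 28.8 and 26.6 CPM in the siYAP libraries of A431 cells, and 7.53, then 4.26, 7.38 and 3.5 CPM in the same libraries of HaCaT cells. The control was above all siYAP libraries in both lines, but CDC6 was called only over both lines, at -0.80 (SE 0.24, FDR = 0.0483). ORC1, the largest subunit of the origin recognition complex, had 18.4 CPM in the siCTRL library against 11, 14.8 and 13.7 CPM in the siYAP libraries of A431 cells, and 4.04, then 1.9, 3.06 and 1.88 CPM in the same libraries of HaCaT cells. Neither line's log2 fold change passed, at -0.48 (SE 0.34, FDR = 0.447) and -0.85 (SE 0.42, FDR = 0.286). ORC3 had 62.6 CPM in the siCTRL library against 70.1, 61.9 and 61.3 CPM in the siYAP libraries of A431 cells, and 51.5, then 46.6, 52.3 and 46.3 CPM in the same libraries of HaCaT cells, and its groups overlapped in both lines. ORC5 had 39.8 CPM in the siCTRL library against 35.3, 35.9 and 32 CPM in the siYAP libraries of A431 cells, and 27.9, then 18.7, 15.6 and 14.8 CPM in the same libraries of HaCaT cells. It was the only licensing gene called in HaCaT cells, at -0.77 (SE 0.20, FDR = 0.0398). The median log2 fold change of the 8 licensing genes was -0.31 in A431 cells and -0.54 in HaCaT cells, and this was the one role with the lower median in HaCaT cells.

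Among the polymerases the primase subunit PRIM1 was the clearest. PRIM1 had 38.8 CPM in the siCTRL library against 16.9, 17.4 and 16.7 CPM in the siYAP libraries of A431 cells, and 18.2, then 10.3, 10.2 and 9.65 CPM in the same libraries of HaCaT cells. The triplicates lay close together and clear of their controls, and the log2 fold changes were -1.19 (SE 0.16, FDR = 0.00165) and -0.86 (SE 0.17, FDR = 0.00965). POLD1, the catalytic subunit of polymerase delta, had 13.1 CPM in the siCTRL library against 9.1, 13.9 and 15.6 CPM in the siYAP libraries of A431 cells, and 8.13, then 7.39, 8.16 and 7.7 CPM in the same libraries of HaCaT cells. Its change was -0.04 (SE 0.30) and -0.07 (SE 0.32) on the log2 scale. POLE2, an accessory subunit of polymerase epsilon, was called in A431 cells at -1.55 (SE 0.19, FDR = 0.000854) and was -0.26 (SE 0.22, FDR = 0.566) in HaCaT cells. In total 5 of 9 polymerase genes were called lower in A431 cells (POLE2, PRIM1, POLA1, POLE and POLD3) and 1 of 9 in HaCaT cells.

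PCNA, the sliding clamp, had 189 CPM in the siCTRL library against 83.7, 103 and 87.9 CPM in the siYAP libraries of A431 cells, and 108, then 86.9, 88.2 and 84 CPM in the same libraries of HaCaT cells. All 6 siYAP libraries were below their controls, and the log2 fold change passed in A431 cells, at -1.05 (SE 0.19, FDR = 0.00936), but not in HaCaT cells, at -0.32 (SE 0.20, FDR = 0.409). RFC1, the large subunit of the clamp loader, had 119 CPM in the siCTRL library against 121, 108 and 117 CPM in the siYAP libraries of A431 cells, and 95.2, then 88.7, 93.5 and 90.1 CPM in the same libraries of HaCaT cells. It changed by -0.04 (SE 0.13) and -0.07 (SE 0.13) on the log2 scale, while RFC2, RFC3 and RFC5 were called lower in A431 cells at -0.79, -0.89 and -0.87. The single-stranded DNA binding complex was also uneven. RPA2 had 88.1 CPM in the siCTRL library against 45.9, 47.1 and 47.6 CPM in the siYAP libraries of A431 cells, and 46.8, then 31.7, 29.7 and 24.4 CPM in the same libraries of HaCaT cells. It was called in both lines, at -0.91 (SE 0.15, FDR = 0.00647) and -0.71 (SE 0.16, FDR = 0.0201). RPA1 had 90.1 CPM in the siCTRL library against 76.5, 74.7 and 70.5 CPM in the siYAP libraries of A431 cells, and 92.2, then 96.1, 97.7 and 97.8 CPM in the same libraries of HaCaT cells. RPA3 had 62.8 CPM in the siCTRL library against 62.5, 63.6 and 53.5 CPM in the siYAP libraries of A431 cells, and 28.1, then 26.5, 37.3 and 26.1 CPM in the same libraries of HaCaT cells. Neither RPA1 nor RPA3 passed in either line, with log2 fold changes between -0.28 and 0.09. FEN1, the flap endonuclease of Okazaki fragment maturation, had 72.5 CPM in the siCTRL library against 25.8, 41 and 31.1 CPM in the siYAP libraries of A431 cells, and 23.6, then 15.9, 17.3 and 13.4 CPM in the same libraries of HaCaT cells. It was called in A431 cells at -1.15 (SE 0.23, FDR = 0.0141) and not in HaCaT cells, at -0.60 (SE 0.25, FDR = 0.197).

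For nucleotide supply, RRM2, the regulated subunit of ribonucleotide reductase, had 61.8 CPM in the siCTRL library against 17.6, 22.3 and 20.05 CPM in the siYAP libraries of A431 cells, and 9.82, then 4.5, 7.39 and 3.24 CPM in the same libraries of HaCaT cells. The log2 fold change was -1.63 (SE 0.39, FDR = 0.0299) in A431 cells and -0.99 (SE 0.47, FDR = 0.255) in HaCaT cells. RRM1, its large subunit, had 222 CPM in the siCTRL library against 135, 137 and 137 CPM in the siYAP libraries of A431 cells, and 104, then 98, 102 and 90.6 CPM in the same libraries of HaCaT cells. RRM1 fell by less than RRM2 in A431 cells, at -0.71 (SE 0.18, FDR = 0.0381), though this difference between the genes was not tested. DUT, which removes dUTP, had 64.7 CPM in the siCTRL library against 29, 40.5 and 32.7 CPM in the siYAP libraries of A431 cells, and 38.9, then 21.9, 23.2 and 21.5 CPM in the same libraries of HaCaT cells. Its siYAP libraries were clear of the control in both lines, with log2 fold changes of -0.93 (SE 0.18, FDR = 0.0104) and -0.81 (SE 0.18, FDR = 0.0198).

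The chromatin and fork protection genes had the largest median differences between the lines, 0.80 and 0.84 on the log2 scale (HaCaT minus A431), next to 0.78 for the MCM genes. CHAF1A, a subunit of the histone chaperone CAF-1, had 23.8 CPM in the siCTRL library against 11.1, 17.5 and 18 CPM in the siYAP libraries of A431 cells, and 10.1, then 7.93, 10.5 and 9.51 CPM in the same libraries of HaCaT cells. UHRF1, which brings DNMT1 to newly copied DNA, had 39.5 CPM in the siCTRL library against 16, 24.2 and 20.3 CPM in the siYAP libraries of A431 cells, and 3.71, then 2.83, 5 and 2.18 CPM in the same libraries of HaCaT cells. Neither was called, at -0.97 (SE 0.41, FDR = 0.18) for UHRF1 and -0.62 (SE 0.32, FDR = 0.275) for CHAF1A in A431 cells. TIPIN had 16.2 CPM in the siCTRL library against 6.81, 9.34 and 8.98 CPM in the siYAP libraries of A431 cells, and 13.5, then 8.21, 10.5 and 7.96 CPM in the same libraries of HaCaT cells. TIMELESS, its partner in the fork protection complex, had 48.7 CPM in the siCTRL library against 24.2, 28.4 and 25.8 CPM in the siYAP libraries of A431 cells, and 8.46, then 11, 12.2 and 10.3 CPM in the same libraries of HaCaT cells. All siYAP libraries of TIMELESS were below the control in A431 cells and above it in HaCaT cells, with log2 fold changes of -0.90 (SE 0.17, FDR = 0.0104) and 0.40 (SE 0.20, FDR = 0.284). TIPIN was called over both lines at -0.78 (SE 0.21, FDR = 0.0297). CLSPN, GINS3 and LIG1 had the same opposite signs against siCTRL, with differences between the lines (HaCaT minus A431) of 1.65 (SE 0.51), 1.40 (SE 0.33) and 1.18 (SE 0.33). Against the empty vector all 57 genes, these and TIMELESS included, lay below 0 with siYAP in HaCaT cells.

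Tested as an interaction, the line difference in the siYAP effect passed for 0 of the 57 genes by edgeR, where 0.17% of all genes were called. At an unadjusted p under 0.05 there were 15 of the 57, beside 11.5% of all genes. DESeq2 called 6 of the 57, beside 1.91% of all genes, each with the lower log2 fold change in A431 cells. The smallest FDR was that of TIMELESS, at 0.0795, with a difference of 1.30 (SE 0.27). The plot of the lines against each other shows most genes above the diagonal.

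**Figure D2:**
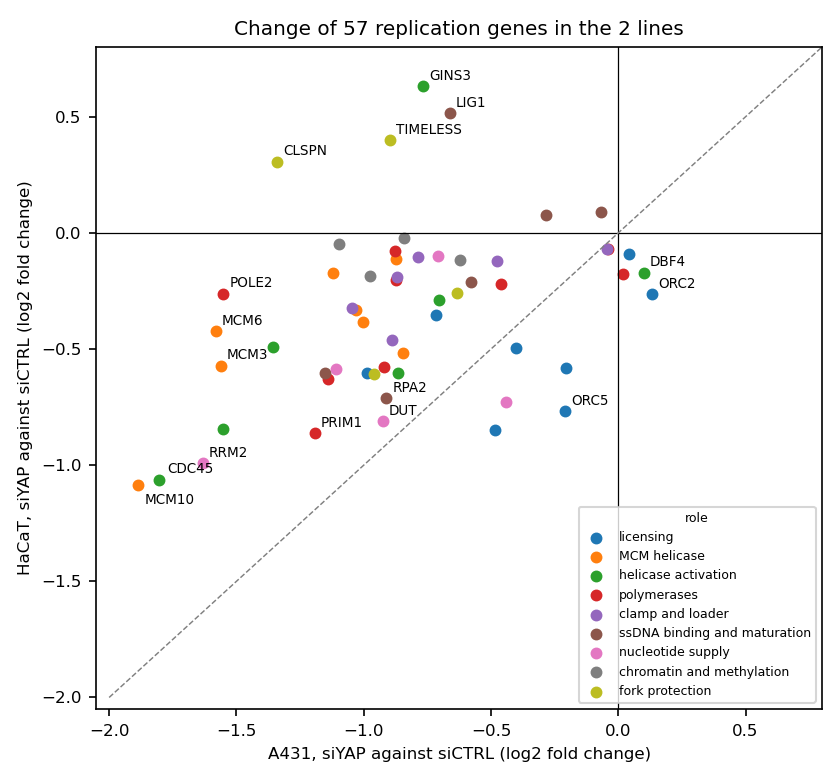
Each point is 1 of the 57 genes, with its log2 fold change (siYAP against siCTRL) in A431 cells on the x axis and in HaCaT cells on the y axis, coloured by role; the dashed line marks equal change. MCM10 and CDC45 lie lowest in both lines, and GINS3, LIG1, TIMELESS and CLSPN lie above 0 in HaCaT cells and below 0 in A431 cells.

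To show the sequences at which this group of genes starts, promoters of 300 bases (250 before and 50 after the gene start) were taken from RefSeq (GRCh38.p14). Of the 57 genes 50 had one. A motif bound by E2F factors was searched on both strands in 4 forms, TTTCCCGC, TTTGGCGC, TTTCGCGC and TTTGCCGC, and was found in 22 of the 50 promoters (44%), against 3.33% of all 27305 promoters and 5.21% of the 10542 promoters of tested genes. CCAAT was found in 28 of the 50 (56%), against 35.7% of all and 36.6% of those of tested genes, and TTTGAA, the CHR element of genes expressed late in the cell cycle, in 2 of the 50 (4%), against 15.4% of all and 9.8% of those of tested genes. The E2F, CCAAT and CHR letters share no overlapping match in the promoters printed here. The median siYAP log2 fold change in A431 cells was -0.95 for the 22 genes with an E2F match and -0.67 for the 28 without, and 12 and 14 of them were called lower. In HaCaT cells the medians were -0.35 and -0.26, and 0 and 3 of these genes were called lower. MCM10, CDC45 and RRM2, the largest falls in both lines, were among the genes without a match. The ranges overlapped, from -1.58 to 0.04 with a match and from -1.88 to 0.13 without in A431 cells. The 5 promoters below are of GINS2 and MCM3, the 2 genes with an E2F match that had the largest falls over the mean of both lines, of PRIM1 and DUT, called in both lines, and of ORC3, which had a log2 fold change of -0.02 over both lines. E2F and CCAAT matches are in capitals.
GINS2 (chr16:85688905-85689204, - strand): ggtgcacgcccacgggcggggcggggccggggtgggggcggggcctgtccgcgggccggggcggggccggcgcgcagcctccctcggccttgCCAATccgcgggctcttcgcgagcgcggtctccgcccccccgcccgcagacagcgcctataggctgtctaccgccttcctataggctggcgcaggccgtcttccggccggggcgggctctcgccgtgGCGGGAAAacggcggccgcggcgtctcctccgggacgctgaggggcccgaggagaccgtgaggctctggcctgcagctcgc
MCM3 (chr6:52284693-52284992, - strand): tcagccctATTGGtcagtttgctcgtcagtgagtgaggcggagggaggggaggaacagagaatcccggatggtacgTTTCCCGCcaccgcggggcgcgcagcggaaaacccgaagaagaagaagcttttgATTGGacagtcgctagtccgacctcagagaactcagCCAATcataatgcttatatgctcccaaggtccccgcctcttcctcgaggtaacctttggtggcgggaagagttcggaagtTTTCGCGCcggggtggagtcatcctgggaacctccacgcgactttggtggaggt
PRIM1 (chr12:56752274-56752573, - strand): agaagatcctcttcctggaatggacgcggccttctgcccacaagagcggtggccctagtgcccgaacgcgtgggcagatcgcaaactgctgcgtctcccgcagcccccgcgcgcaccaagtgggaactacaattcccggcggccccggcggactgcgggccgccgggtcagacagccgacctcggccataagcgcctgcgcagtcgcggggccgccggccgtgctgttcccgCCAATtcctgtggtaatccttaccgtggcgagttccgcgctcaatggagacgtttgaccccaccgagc
DUT (chr15:48330845-48331144, + strand): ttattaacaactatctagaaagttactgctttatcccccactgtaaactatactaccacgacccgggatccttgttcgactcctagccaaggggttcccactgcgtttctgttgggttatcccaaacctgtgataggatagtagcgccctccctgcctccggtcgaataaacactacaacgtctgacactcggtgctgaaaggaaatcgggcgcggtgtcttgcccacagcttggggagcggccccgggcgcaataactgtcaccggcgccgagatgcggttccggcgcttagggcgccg
ORC3 (chr6:87589885-87590184, + strand): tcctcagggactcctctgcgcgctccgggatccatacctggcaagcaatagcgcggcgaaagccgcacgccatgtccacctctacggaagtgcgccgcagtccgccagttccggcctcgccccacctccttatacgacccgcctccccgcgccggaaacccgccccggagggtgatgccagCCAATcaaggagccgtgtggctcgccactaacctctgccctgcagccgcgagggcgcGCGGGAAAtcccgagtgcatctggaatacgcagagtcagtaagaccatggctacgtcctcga
ORC3 holds an E2F match 12 bases before its start, and PRIM1 and DUT hold none of the 4 forms in this window. Other forms of the motif and other start sites of a gene were not searched. The part of these motifs in the siYAP changes was not tested.

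Few of these genes were called with YAP5SA. YAP1 itself was not called in A431 cells, at 4.36 (SE 0.65, FDR = 0.197). It was called in HaCaT cells, at 4.97 (SE 0.67, FDR = 0.00208). A count of 0 in A431 cells therefore does not show that the genes were unchanged. In A431 cells 0 of the 57 genes were called with YAP5SA against the empty vector by edgeR, and 0 by DESeq2, where edgeR called 0% of all genes and DESeq2 0.0204%. Their median log2 fold change was 0.30, against 0.02 over all genes, with 53 of 57 above 0 and 4 at an unadjusted p under 0.05, beside 5.64% of all genes. One library stood apart. The median log2 difference from the empty vector was 0.02 in YAP5SA replicate 1 and 0.43 and 0.36 in replicates 2 and 3, and YAP1 itself was lowest in replicate 1. In all 3 libraries 32 of the 57 lay above the empty vector, beside 29% of all genes. Without replicate 1 the median of the 57 was 0.40 and 0 were called. There 24 of them had an unadjusted edgeR p under 0.05, beside 2329 of 14707 genes.

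In HaCaT cells 1 of the 57 genes was called with YAP5SA, RPA1, which was lower, at -0.63 (SE 0.14, FDR = 0.0143). RPA1 had 225 CPM with the empty vector and 163, 121 and 151 CPM with YAP5SA. All 3 libraries were below the control, and RPA1 was not called when each line was fitted alone. Of all genes 6.64% were called lower and 6.99% higher in this comparison, and DESeq2 called 3 of the 57 and 18.6% of all genes. With siCTRL and the empty vector as 2 controls RPA1 was not called, 2 genes were called higher, CDT1 and POLD1, and the median of the 57 was 0.69. Against the empty vector alone the median log2 fold change of the 57 was -0.00168, with 29 of them below 0. In all 3 libraries 12 of the 57 were above the empty vector and 22 below it, beside 32.1% and 33.9% of all genes. Over both lines 0 of the 57 were called by edgeR, where it called 2.04% of all genes. At an unadjusted p under 0.05 there were 3, beside 21.4% of all genes, and DESeq2 called 1 of the 57 and 7.24% of all genes. Without A431 YAP5SA replicate 1 the edgeR count was 3, beside 8.3% of all genes, and without HaCaT YAP5SA replicate 1 it was 2, beside 9.33%. The difference between the lines passed for 0 of the 57 by edgeR, where it called 0.0886% of all genes. At an unadjusted p under 0.05 there were 13, near the 22.4% of all genes, and DESeq2 called 1 of the 57 and 6.32% of all genes. Without A431 YAP5SA replicate 1 the difference passed for 6 of the 57 and 5.94% of all genes, and without HaCaT YAP5SA replicate 1 for 1 of the 57 and 4.16% of all genes.

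Values in the vector libraries are given for the genes above. MCM10 had 47.4 CPM in the empty vector library against 48, 91.6 and 85.6 CPM in the YAP5SA libraries of A431 cells, and 107, then 101, 139 and 145 CPM in the same libraries of HaCaT cells. CDC45 had 42 CPM in the empty vector library against 41.8, 80.4 and 72.7 CPM in the YAP5SA libraries of A431 cells, and 44.4, then 42.7, 55.3 and 55.2 CPM in the same libraries of HaCaT cells. RRM2 had 143 CPM in the empty vector library against 147, 279 and 261 CPM in the YAP5SA libraries of A431 cells, and 386, then 228, 406 and 444 CPM in the same libraries of HaCaT cells. In A431 cells these 3 genes were near the empty vector in replicate 1 and above it in replicates 2 and 3. The MCM ring followed the same pattern. MCM2 had 187 CPM in the empty vector library against 170.3, 272 and 257 CPM in the YAP5SA libraries of A431 cells, and 136, then 146, 187 and 228 CPM in the same libraries of HaCaT cells. MCM3 had 158 CPM in the empty vector library against 143, 286 and 254 CPM in the YAP5SA libraries of A431 cells, and 203, then 193, 242 and 248 CPM in the same libraries of HaCaT cells. MCM4 had 214 CPM in the empty vector library against 217, 302 and 286 CPM in the YAP5SA libraries of A431 cells, and 475, then 383, 491 and 515 CPM in the same libraries of HaCaT cells. The A431 replicate 1 was the lowest of its triplicate for each of these ring genes. MCM5 had 43 CPM in the empty vector library against 34.9, 69.4 and 61.1 CPM in the YAP5SA libraries of A431 cells, and 48.6, then 50.9, 60.8 and 81.8 CPM in the same libraries of HaCaT cells. MCM6 had 109.5 CPM in the empty vector library against 116, 159.9 and 156 CPM in the YAP5SA libraries of A431 cells, and 239, then 168, 173 and 185 CPM in the same libraries of HaCaT cells. MCM7 had 219 CPM in the empty vector library against 212, 337 and 313 CPM in the YAP5SA libraries of A431 cells, and 279.9, then 277, 390.5 and 369 CPM in the same libraries of HaCaT cells. In HaCaT cells MCM6 was below the empty vector in all 3 libraries, MCM5 above it in all 3 and MCM7 on both sides. PCNA had 300.3 CPM in the empty vector library against 303, 449.9 and 449 CPM in the YAP5SA libraries of A431 cells, and 638, then 482, 558 and 593 CPM in the same libraries of HaCaT cells. PRIM1 had 45 CPM in the empty vector library against 48, 63.1 and 64.9 CPM in the YAP5SA libraries of A431 cells, and 60.3, then 47.5, 48.5 and 51.6 CPM in the same libraries of HaCaT cells. GINS2 had 31.7 CPM in the empty vector library against 32.7, 52.3 and 50.1 CPM in the YAP5SA libraries of A431 cells, and 61.8, then 49.8, 62.3 and 69.6 CPM in the same libraries of HaCaT cells. PCNA and PRIM1 were above the control in every A431 library and below it in every HaCaT library.

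Licensing genes differed among themselves. ORC1 had 35.5 CPM in the empty vector library against 36.9, 62.3 and 53.9 CPM in the YAP5SA libraries of A431 cells, and 50.1, then 42, 68.7 and 76.6 CPM in the same libraries of HaCaT cells. CDC6 had 94.4 CPM in the empty vector library against 101, 137 and 124 CPM in the YAP5SA libraries of A431 cells, and 159.6, then 139, 217 and 214 CPM in the same libraries of HaCaT cells. ORC3 had 76.2 CPM in the empty vector library against 82.4, 98.6 and 96.6 CPM in the YAP5SA libraries of A431 cells, and 103, then 72.1, 83.6 and 81.1 CPM in the same libraries of HaCaT cells. Of these, ORC3 was below the empty vector in all 3 HaCaT libraries. DBF4 had 67.7 CPM in the empty vector library against 67, 80.7 and 84.9 CPM in the YAP5SA libraries of A431 cells, and 88.5, then 68.4, 84.3 and 81.6 CPM in the same libraries of HaCaT cells. POLD1 had 20.7 CPM in the empty vector library against 16.2, 21 and 18.6 CPM in the YAP5SA libraries of A431 cells, and 10.7, then 17.8, 15.1 and 24.3 CPM in the same libraries of HaCaT cells. RFC1 had 125 CPM in the empty vector library against 134, 122 and 124 CPM in the YAP5SA libraries of A431 cells, and 279, then 240.4, 199 and 211 CPM in the same libraries of HaCaT cells. POLD1 was higher in every HaCaT library than in the empty vector, at a log2 fold change of 0.84 (SE 0.31, FDR = 0.0873), which did not pass. MCM8 had 54.5 CPM in the empty vector library against 53, 77.6 and 75.1 CPM in the YAP5SA libraries of A431 cells, and 141, then 127, 161 and 154 CPM in the same libraries of HaCaT cells. RPA3 had 102 CPM in the empty vector library against 105, 96.4 and 105 CPM in the YAP5SA libraries of A431 cells, and 108, then 78.6, 83.4 and 74.8 CPM in the same libraries of HaCaT cells. FEN1 had 105 CPM in the empty vector library against 114, 154 and 143 CPM in the YAP5SA libraries of A431 cells, and 188, then 176, 200.01 and 235 CPM in the same libraries of HaCaT cells. RPA3 was below the control in each HaCaT library, whereas MCM8 and FEN1 lay on both sides of it. RRM1 had 334 CPM in the empty vector library against 315, 431.2 and 429.9 CPM in the YAP5SA libraries of A431 cells, and 519.9, then 364, 461 and 475 CPM in the same libraries of HaCaT cells. CHAF1A had 28 CPM in the empty vector library against 26.6, 42.7 and 39.5 CPM in the YAP5SA libraries of A431 cells, and 50.3, then 53.5, 43.2 and 69.5 CPM in the same libraries of HaCaT cells. UHRF1 had 48.2 CPM in the empty vector library against 40.8, 93.4 and 76.4 CPM in the YAP5SA libraries of A431 cells, and 74.3, then 98.6, 107 and 148 CPM in the same libraries of HaCaT cells. UHRF1 was above its control in 5 of 6 libraries, A431 replicate 1 being the exception. TIMELESS had 52.6 CPM in the empty vector library against 51.2, 71.2 and 64.9 CPM in the YAP5SA libraries of A431 cells, and 85.6, then 70.0, 62.4 and 65.6 CPM in the same libraries of HaCaT cells. TIPIN had 14.9 CPM in the empty vector library against 20.2, 26.8 and 26.6 CPM in the YAP5SA libraries of A431 cells, and 47.5, then 38.8, 71.5 and 53.3 CPM in the same libraries of HaCaT cells. TIMELESS was lower than its control in each HaCaT library and TIPIN higher in each A431 library. RPA1 in A431 cells had 103 CPM with the empty vector and 105, 109 and 114 CPM with YAP5SA. DUT had 87.4 CPM in the empty vector library against 89.5, 117 and 110.1 CPM in the YAP5SA libraries of A431 cells, and 244, then 156, 178 and 178 CPM in the same libraries of HaCaT cells. RPA2 had 90.3 CPM in the empty vector library against 99.3, 102 and 101 CPM in the YAP5SA libraries of A431 cells, and 81, then 55.4, 61.9 and 72.6 CPM in the same libraries of HaCaT cells. ORC5 had 37 CPM in the empty vector library against 36.5, 48.4 and 42.8 CPM in the YAP5SA libraries of A431 cells, and 50.1, then 31.8, 42.2 and 42.2 CPM in the same libraries of HaCaT cells. DUT, RPA2 and ORC5 were below the empty vector in all 3 HaCaT libraries.

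**Figure D3:**
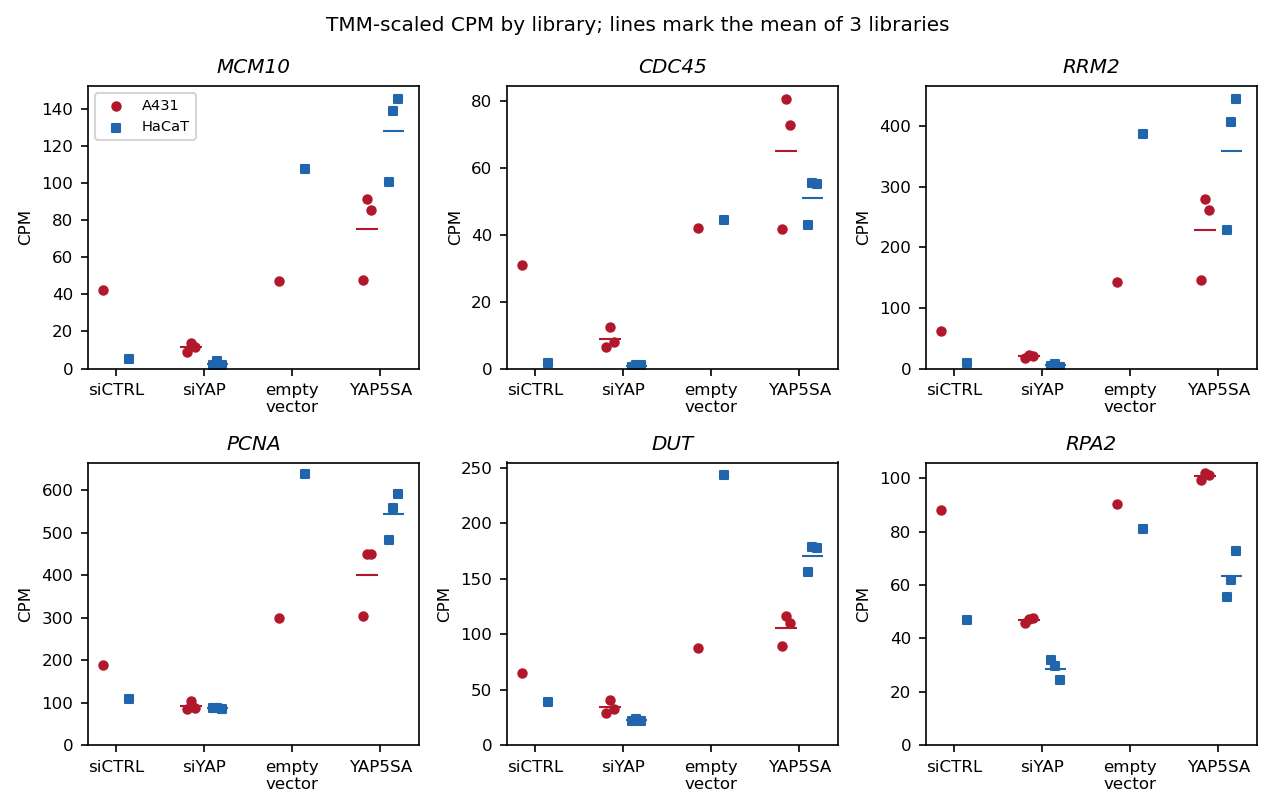
TMM-scaled CPM on the y axis of 6 replication genes in every library, by arm on the x axis, for A431 cells (circles) and HaCaT cells (squares); short lines mark the mean of 3 libraries. In HaCaT cells the siCTRL library lies far below the empty vector library, at 9.82 against 386 CPM for RRM2.

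The 2 control libraries of HaCaT cells were far apart for these genes. Empty vector minus siCTRL had a median log2 difference of 2.32 over the 57 genes, a 4.98-fold difference, with all 57 above 0 and a range from 0.02 (ORC2) to 5.23 (RRM2). The median over all genes was -0.03. A difference above 2-fold was seen for 49 of the 57 genes, beside 14.8% of all genes. CDC45 stood at 1.69 CPM with siCTRL and 44.4 CPM with the empty vector, TYMS at 1.31 and 40.6 CPM, and CLSPN at 6.4 and 159 CPM. In A431 cells the median log2 difference was 0.40 with 48 of 57 above 0, and 3 of the 57 (RRM2, TYMS and TK1) exceeded 2-fold, beside 3.85% of all genes. With 1 library in each control these differences have no replicate check. The transfection, the vector, the time and the culture differ together between the arms and cannot be told apart.

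Several other values moved with this difference. MKI67, a marker of cycling cells, had 87.7 CPM in the HaCaT siCTRL library, 68.3, 109.8 and 74.5 CPM with siYAP and 478 CPM with the empty vector. In A431 cells MKI67 had 167 CPM in the siCTRL library and 200.1, 119 and 180.0 CPM in the siYAP libraries, on both sides of that control. The 5 keratinocyte markers summed to 1870 CPM with siCTRL and 5250 CPM with the empty vector in HaCaT cells, and to 2170 and 3870 CPM in A431 cells. The 4 fibroblast markers summed to 13 CPM with siCTRL and 14.7 to 19.9 CPM with siYAP in HaCaT cells, mostly DCN, against 0.605 CPM with the empty vector and 0.66 to 1.69 CPM with YAP5SA. The 3 endothelial markers summed to 59.1 CPM with siCTRL, 16 to 19.6 CPM with siYAP, 2.1 CPM with the empty vector and 1.19 to 2.39 CPM with YAP5SA in HaCaT cells, and to 33.8, 18.3 to 21.9, 5.92 and 3.87 to 4.56 CPM in A431 cells. The part of these markers in the result was not tested.

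The number of genes called with siYAP changed with the control. With siCTRL and the empty vector as 2 controls, the genes called lower with siYAP numbered 1 of 57 for A431 cells and 50 for HaCaT cells, beside 1.06% and 15% of all genes. The medians of the 57 were then -1.03 and -1.86, so that the A431 value was lower than against siCTRL alone while fewer genes passed. In that fit the 2 controls of a line were treated as replicates, in 1 model of both lines. The difference between the HaCaT controls therefore entered the spread used for A431 cells too. Against the empty vector alone, an alternative added after the data were seen, the counts were 44 and 55, beside 6.92% and 27.7% of all genes. The median log2 fold change against the empty vector was -1.21 in A431 cells and -2.59 in HaCaT cells, and the orders of the 2 lines then had a Spearman rho of 0.74. The larger median fall was in A431 cells against siCTRL and in HaCaT cells against the empty vector.

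**Figure D4:**
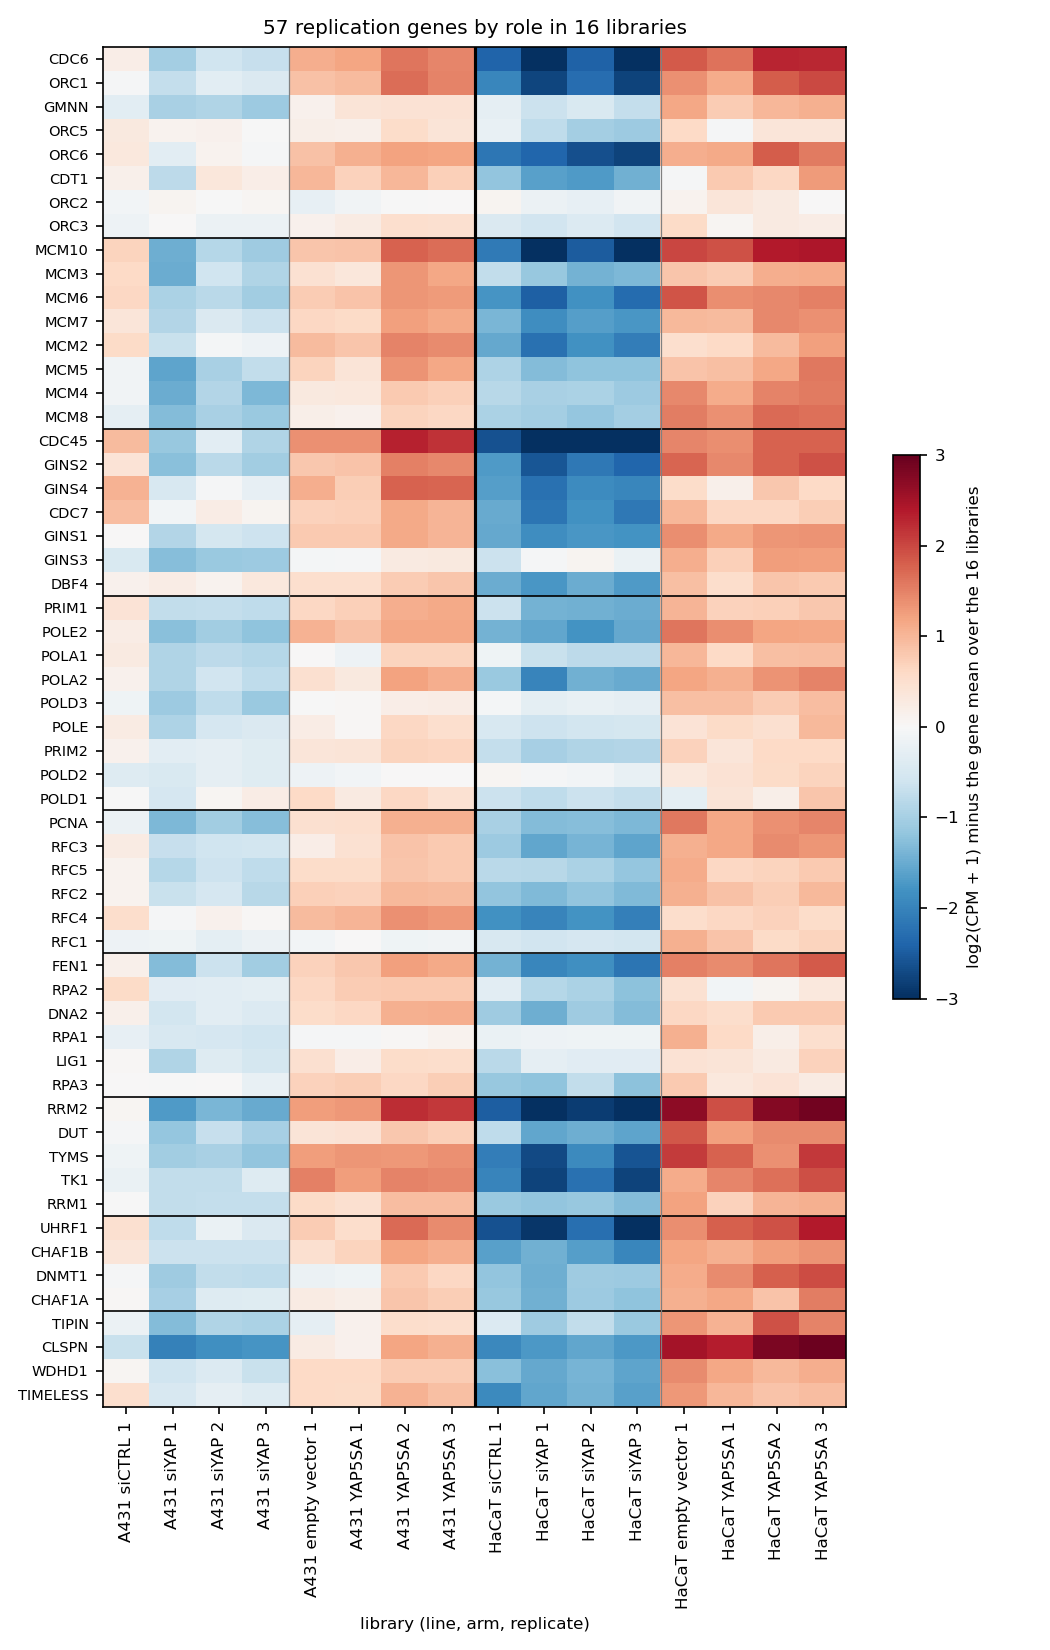
Log2(CPM + 1) of each gene minus its mean over the 16 libraries, in colour, for the 57 genes (rows, by role, within a role by the siYAP fall over both lines) and the 16 libraries (columns). The HaCaT siCTRL library is mostly blue like the siYAP libraries beside it, and the HaCaT empty vector library is mostly red like the YAP5SA libraries.

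Set directly against each other, the YAP5SA and siYAP libraries differed for nearly the whole list. In A431 cells 53 of the 57 genes were called higher with YAP5SA, where 20% of all genes were called higher, and in HaCaT cells 57 of 57, where 31.5% were. The median log2 fold changes were 1.52 and 2.62. All 3 YAP5SA libraries were above all 3 siYAP libraries for 56 genes in A431 cells and for 57 in HaCaT cells. The share of all genes separated in this way was not counted. RRM2 differed by 3.52 (SE 0.32) on the log2 scale in A431 cells and by 6.18 (SE 0.37) in HaCaT cells. This comparison crosses the arms and holds the difference between the control libraries, whose median was 0.40 in A431 cells and 2.32 in HaCaT cells.

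Levels also differed between the lines, in opposite directions in the 2 arms. HaCaT minus A431, the median log2 difference of the 57 genes was -1.27 between the siCTRL libraries and -0.73 between the siYAP groups, but 0.61 between the empty vector libraries and 0.29 between the YAP5SA groups. The number of genes lower in HaCaT cells was 52, 45, 8 and 14 of 57 in the same order. Over all genes the medians lay between -0.04 and -0.02.

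Replication genes outside the list were read from 36 others that act in initiation, at the fork, in nucleotide metabolism and in replication-coupled chromatin. With siYAP 7 of the 36 were called lower in A431 cells, 4 in HaCaT cells and 15 over both lines. Of all genes 3.78%, 3.3% and 7.68% were called lower in the same order. None of the 36 was called higher in any of these. The median log2 fold changes were -0.36, -0.17 and -0.33. Among the largest changes called over both lines were those of DSCC1, a subunit of an alternative clamp loader, at -1.61 (SE 0.34), CDCA7 at -1.38 (SE 0.18), DTL, which directs the degradation of CDT1, at -1.03 (SE 0.23), ASF1B, a histone chaperone, at -0.91 (SE 0.22), and RRM2B, the p53-inducible subunit of ribonucleotide reductase, at -0.72 (SE 0.14). CDCA7 had log2 fold changes of -0.71 (SE 0.24) in A431 cells and -2.04 (SE 0.26) in HaCaT cells, and this difference between the lines did not pass the test. With YAP5SA 0 of the 36 were called by edgeR in either line, with 5 at an unadjusted p under 0.05 in each (5.64% of all genes in A431 cells and 31.8% in HaCaT cells), and DESeq2 called 0 in A431 cells and 2 in HaCaT cells.

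Some counts may be shared with other genes, because the counting is not stated to use strand. In GENCODE release 29, exons of 18 of the 57 genes overlap a gene on the opposite strand, among them PRIM1, DUT, GINS2, MCM2, MCM7, RRM1 and TYMS. Pseudogenes named after 10 of the 57 are annotated, among them DUT, RPA2, PCNA and RRM2. Of the 3 genes called in both lines, each is on 1 or both of these lists.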

How the data were processed

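RNA-seq libraries from A431 and HaCaT cells were analysed in 8 groups taken from the sample labels. The authors cut the paired reads to 75 bases, quantified them on RefSeq models by RSEM and deposited unscaled expected counts per gene (version 1.2.11 and hg19 in the submitters' notes, another RSEM version in the paper's methods). Strand handling is not given in the sources used here. Of the values, 17.7% were not whole, and 0 columns of sample values were unused. The 57 genes, the 36 other replication genes, the marker lists and the naming rule were chosen with earlier results of these data known. The rule gave values in every library for YAP1, the 5 largest siYAP falls in each line and over both, genes called with YAP5SA or between lines, the largest and smallest change of each role, PCNA and MCM2 to MCM7, and named up to 6 of the other genes, by size of change, if called over both lines, of which 1 is not reported here. ORC5, RPA2, DUT and MKI67 were given in every library after their values were seen.

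Counts were rounded and fitted with edgeR 4.0.16 in R 4.3.3 (TMM, quasi-likelihood test, prior count 0.125, 8 residual degrees of freedom, biological coefficient of variation 0.174) in 1 model of all 16 libraries. Genes with a mean count above 10 were kept. Calls needed a Benjamini-Hochberg FDR under 0.05 over all tested genes and a logCPM above 1, as in the paper. The SE is the log2 fold change over the square root of its F. Differences between single libraries used log2(CPM + 0.5). No 2 replicates agreed within sampling noise. The script was tested on simulated data. Alternatives were DESeq2 1.42.0, RLE size factors, FDR alone, dropping the filter or asking for over 10 counts in each of the libraries, each line alone, 2 controls per line, the empty vector as control, each treated library left out and a replicate block. Promoters came from RefSeq and lengths and overlaps from GENCODE release 29 (GRCh38), matched by symbol. Tables were summarised in Python 3.11.15 with pandas 2.3.3.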

Additional observations from a re-analysis of the deposited data

Results flagged for a closer look

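The genes below were flagged because every treated library of A431 cells lay on one side of its control and every treated library of HaCaT cells on the other. Values are the differences of log2 fold change, HaCaT minus A431. The difference was tested as an interaction term in edgeR, and none passed at an FDR of 0.05 (Benjamini-Hochberg over all tested genes). Each control was 1 library. How many of all genes met this rule was not counted.

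With siYAP, 5 genes were below the control in A431 cells and above it in HaCaT cells, by 1.65 for CLSPN (FDR = 0.222), 1.4 for GINS3 (FDR = 0.12), 1.3 for TIMELESS (FDR = 0.0795), 1.18 for LIG1 (FDR = 0.176) and 0.36 for RPA1 (FDR = 0.545). ORC2 lay the other way, at -0.4 (FDR = 0.509). The control here was siCTRL, and against the empty vector all 57 genes lay below 0 with siYAP in HaCaT cells.

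With YAP5SA, 13 genes were above the empty vector in A431 cells and below it in HaCaT cells. Taking each line by itself, 29% of all genes were above it in all 3 A431 libraries. In HaCaT cells 33.9% of all genes were below it in all 3 libraries. Among the helicase, licensing and kinase genes the differences were -0.84 for MCM6, -0.67 for ORC3, -0.64 for CDC7, -0.52 for GMNN and -0.33 for GINS1. For the primase, clamp and clamp loader they were -0.68 for PRIM1, -0.38 for PRIM2, -0.65 for PCNA and -0.61 for RFC5. For DNA binding, nucleotide supply and fork protection they were -0.71 for RPA1, -0.52 for RPA2, -0.78 for DUT and -0.45 for WDHD1. TK1 lay the other way, at 0.7. The FDR of these 14 differences in edgeR lay between 0.0921 for RPA1 and 0.411 for GINS1.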

How the results depend on the processing

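The count of genes called lower with siYAP depended on the control. With siCTRL and the empty vector as 2 controls it went from 30 to 1 in A431 cells, from 4 to 50 in HaCaT cells and from 30 to 51 over both lines, with medians of -1.029 in A431 cells, -1.865 in HaCaT cells and -1.497 over both and a rho between the lines of 0.733. Against the empty vector it was 55 in HaCaT cells and 56 over both, with medians of -1.213 in A431 cells, -2.587 in HaCaT cells and -1.922 over both and a rho of 0.737. These settings bring in the HaCaT empty vector library, in which the 57 genes were 4.98-fold higher in the median. Both turned small changes that had not passed, to -0.107 and -0.241 for ORC3 and -0.115 and -0.302 for DBF4 in A431 cells, to -0.706 and -1.209 for RPA1, -1.189 and -1.854 for RPA3 and -2.078 and -2.938 for TIMELESS in HaCaT cells, and to -0.824 and -1.31 for RPA3 over both. In HaCaT cells all 57 genes lay below 0 in both settings, so CLSPN, GINS3 and LIG1 had turned as well.

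DESeq2 called 3 genes with YAP5SA in HaCaT cells (edgeR 1), 1 over both lines (edgeR 0), 1 for the YAP5SA line difference (edgeR 0) and 6 for the siYAP line difference (edgeR 0). With each line alone, 2 were called with siYAP and 0 with YAP5SA in HaCaT cells, and with 2 controls 2 were called there with YAP5SA, both higher, whereas RPA1, which had been called lower, was not, and the median of the 57 went from -0.00168 to 0.69. The cause was not tested.

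With 1 treated library of the compared groups left out, the count was 14 to 25 for siYAP in A431 cells. It was 14 without replicate 3, where the median was -0.88. For siYAP in HaCaT cells it was 1 to 4 (1 without replicate 3). For YAP5SA in HaCaT cells it was 1 to 2 (2 without replicate 1 or 2). It was 0 to 3 for YAP5SA over both lines and 0 to 6 for its line difference. Libraries of other groups also enter the spread. Leaving out 1 of those gave 27 to 35 for siYAP in A431 cells, 3 to 5 for siYAP in HaCaT cells and 1 to 3 for YAP5SA in HaCaT cells. Changes near 0 turned sign, over -0.041 to 0.078 for ORC3, -0.198 to 0.144 for POLD1, -0.098 to 0.002 for RFC1 and -0.117 to 0.006 for RPA3 in A431 cells, -0.094 to 0.178 for RPA3 and -0.573 to 0.057 for UHRF1 in HaCaT cells, and -0.134 to 0.036 for POLD1 and -0.081 to 0.052 for RPA3 over both.

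A replicate block could be fitted only for YAP5SA against siYAP, where it called 54 genes in A431 cells and 57 in HaCaT cells, against 53 and 57 without it. Deviations of same-numbered libraries correlated at 0.061, 0.052 and -0.064 in A431 cells and 0.007, 0.112 and 0.052 in HaCaT cells. With triplicates these values cannot show whether same-numbered libraries were prepared together, and the labels do not say. Against a single control library no paired analysis was possible because the groups share fewer than 2 numbers.

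Each control was 1 library, so the spread came from the treated triplicates and the controls were assumed to vary like them. Genes near 1 CPM in HaCaT cells, such as CDC45, were measured with the widest errors. Depth is counting error only.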
